A study of Mus musculus with 2 samples.

Results

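Cdh1, Cdh3, Cdh2 and Epcam encode 4 adhesion proteins of the cell surface, and the rows describing them were taken from a mouse embryo comparison by position. A transcript was a member where its mm9 locus overlapped the genome window of one of the 4 genes, and 6 of the 55418 transcripts in the authors' deposited table did so. The table's gene symbol column is empty, so the symbols used here rest on position. At Cdh1 and Cdh3 the table lists 2 transcripts each, and at Cdh2 and Epcam 1 each. Of the 6 transcripts, 4 were tested, 1 for each gene.

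Cadherins are calcium-dependent adhesion proteins that bind the same cadherin on a neighbouring cell and attach to the actin skeleton through catenins. Epithelia are known for E-cadherin, the product of Cdh1, and the neural plate is known for losing E-cadherin and gaining N-cadherin, the product of Cdh2, as the neural tube forms. Cdh3 encodes P-cadherin, a close relative of E-cadherin found in placenta and epithelia. Epcam encodes an epithelial cell adhesion molecule that is not a cadherin.

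The study sorted 2 pools of live single cells from embryos of mTmG reporter mice crossed to Grhl3-cre mice, both on a C57BL/6 background, at embryonic day 9.5 and 21 to 25 somites. In these embryos all cells carry a red membrane reporter that Cre switches to green, and Cre is driven by Grhl3, so the sorted GFP-positive cells are the non-neural ectoderm per the labels; the RFP-positive pool holds what the labels call the remaining neural tube cells. Other tissue was dissected away first, RNA of 25 embryos was pooled, and each pool gave 1 library, with no replicate. In the table the conditions are called q1 and q2, names that match neither pool, so a difference below is between q1 and q2 and has no direction between ectoderm and neural tube. Its columns of abundance per condition were not used for the same reason, and no expression level of any of the 4 genes is given. In such pooled RNA, fewer cells of a type and less RNA per cell cannot be told apart.

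The loci fitted their symbols by length. The mm9 locus of Epcam spans 15149 bases, and the gene has the same length of 15149 bases in RefSeq's annotation of the later build GRCm38.p6. The locus spans of Cdh1, Cdh3 and Cdh2 were 66879, 46018 and 220173 bases, against 66898, 46060 and 220370 bases in RefSeq. Cdh3 and Cdh1 are neighbours on chromosome 8, and the gap between them is 46459 bases on mm9 and 46439 bases in RefSeq's annotation. In the GENCODE annotation of GRCm38 the longest protein-coding transcript has 16 exons for each of the 3 cadherins and 10 exons for Epcam, with Cdh2 on the minus strand and the others on the plus strand.

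Transcripts of Cdh1 and Epcam passed the authors' test and were both lower in q2 than in q1, by 4.35-fold and 4.58-fold. Those of Cdh3, which is also found in epithelia, and of Cdh2 did not pass it. Their fold changes were also negative but smaller, 1.65-fold for Cdh3 and 1.31-fold for Cdh2, and none of the 4 was positive. Because its fold change was negative, Cdh2, the neural cadherin, could not be called with the opposite sign. Only 203 of the 29405 tested transcripts had a positive call, so the lack of one does not set Cdh2 apart. The median log2 fold change of the 4 was -1.42, beside 0.0046 over the 28140 tested transcripts with a finite value. Among these 28140 transcripts, 49.5% had a negative fold change and 5.70% were at least 2-fold negative.

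Cdh1, for E-cadherin, had a log2 fold change of -2.12 in the authors' deposited table, a 4.35-fold lower value in q2 than in q1. It was transcript uc009ngi.1 on chromosome 8, at 109127267 to 109194146 of mm9. Its error, taken as the size of the fold change divided by the size of the test statistic, was 0.55, which gives a 95% interval from -3.19 to -1.05. The q-value, Cuffdiff's p-value adjusted over all tested transcripts, was 0.0157 in the authors' deposited table. The interval ran from 9.15-fold to 2.07-fold lower, so it lay wholly beyond 2-fold. It covers the error of the authors' model for 2 libraries and not the spread between embryos.

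Epcam had a log2 fold change of -2.19 in the authors' deposited table, 4.58-fold lower in q2 than in q1, close to the value of Cdh1. It was transcript uc008duy.1 on chromosome 17, at 88035318 to 88050467 of mm9, the single transcript listed for its locus. The error was 0.56, the 95% interval ran from -3.29 to -1.10, and the q-value in the authors' deposited table was 0.0126. As at Cdh1, the whole interval lay beyond 2-fold.

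Cdh3, for P-cadherin, had a log2 fold change of -0.72 in the authors' deposited table, 1.65-fold lower in q2 than in q1. It was transcript uc009ngh.1 on chromosome 8, at 109034790 to 109080808 of mm9. Its error was 0.44, its p-value was 0.101 and its q-value was 0.99998 in the authors' deposited table. The 95% interval ran from -1.59 to 0.14, so that no difference lay within it, and so did a 2-fold lower value in q2.

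Cdh2, for N-cadherin, had a log2 fold change of -0.39 in the authors' deposited table, 1.31-fold lower in q2 than in q1. It was transcript uc008edx.2 on chromosome 18, at 16747385 to 16967558 of mm9. Its p-value was 0.193 and its q-value was 0.99998 in the authors' deposited table. Its error of 0.30 was close to the smallest of any tested transcript, 0.27, and only 1.72% of tested transcripts had an error as small. The 95% interval ran from -0.98 to 0.20. A value 1.97-fold lower in q2 and a value 1.15-fold higher were its limits, so the 4-fold differences of Cdh1 and Epcam lay outside it.

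**Figure D1:**
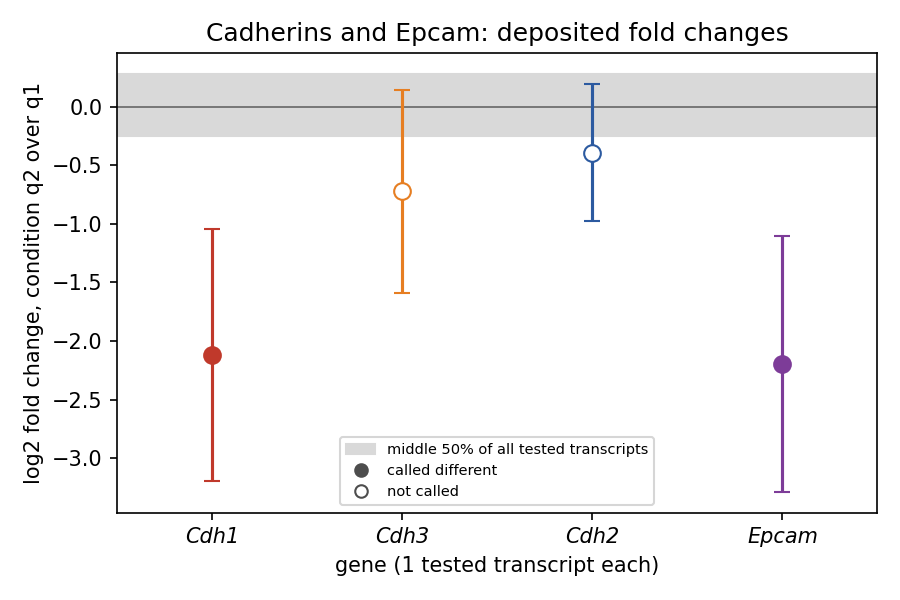
Log2 fold change of condition q2 over q1 in the authors' deposited table for the tested transcript of Cdh1, Cdh3, Cdh2 and Epcam, with 95% intervals from the deposited test statistic as bars; filled points were called different and the grey band holds the middle 50% of all tested transcripts. The points of Cdh1 and Epcam lie at -2.12 and -2.19 with bars clear of 0, and the bars of Cdh3 and Cdh2 cross 0.

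The other 2 transcripts, uc009ngj.1 at the Cdh1 locus and uc009ngg.1 at the Cdh3 locus, were marked as not tested, each with a log2 fold change of 0 and a p-value of 1 in the authors' deposited table. This is common there, since 15280 of the 25431 transcripts marked as not tested, or 60.1%, list a fold change of 0. At Cdh1 and Cdh3 the comparison therefore rests on 1 transcript model each. How reads were shared between the 2 models of a locus was not tested.

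By size the 4 values can be described as 2 pairs, a grouping made after seeing them. The fold changes of Cdh1 and Epcam differed by 0.07 on the log2 scale, with an error of 0.78 and a 95% interval from -1.46 to 1.60, which is too wide to show that they changed alike. Those of Cdh3 and Cdh2 differed by -0.33 with an interval from -1.38 to 0.71. Between the pairs the differences were larger. The log2 fold change of Cdh1 minus that of Cdh2 was -1.73, a ratio of 3.32 between their fold changes. The error of this difference was 0.62, with an interval from -2.95 to -0.51. The fold change of Cdh2 exceeded that of Epcam by 1.80, with an error of 0.63 and an interval from 0.56 to 3.04. For Cdh1 against its neighbour Cdh3 the difference was -1.40 with an interval from -2.78 to -0.02, which came close to including 0. The fold change of Cdh3 exceeded that of Epcam by 1.47 with an interval from 0.08 to 2.87, which also came close to including 0. These 6 intervals treat the errors of the members as independent and are not widened for their number, and no test was run on them.

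The 2 calls can be set against the whole table, in which 236 of 29405 tested transcripts, or 0.803%, were called different. Negative calls were 33, or 0.112% of those tested, and positive calls were 203. Cdh1 and Epcam were therefore 2 of the 33 calls on the rarer, negative side. By size they were not extreme among them. Epcam ranked 18th and Cdh1 21st from the lowest of the 29 negative calls with a finite value, whose median log2 fold change was -2.38 and whose range ran from -3.20 to -1.25. Cdh2 and Epcam are the only transcripts listed for their loci, and at such loci 2.54% of tested transcripts were called and 0.499% were negative calls.

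Fold changes as low as those of Cdh1 and Epcam were seldom called. At or below the value of Cdh1 there were 446 tested transcripts, or 1.58%, of which 21 were called. At or below that of Epcam there were 420, or 1.49%, of which 18 were called. Of these, 443 of the 446 had a wider error than Cdh1 and 418 of the 420 a wider error than Epcam; the median error of all tested transcripts was 0.89. For Cdh3 8.66% of tested transcripts were as low or lower, and for Cdh2 17.0%. Against transcripts whose errors lay within 10% of their own, the members stood further out on the negative side. This ranking reuses the deposited fold change and statistic and is not a separate test. Of 2714 transcripts with an error like that of Cdh1, 6 others were as low or lower, and of 2699 with an error like that of Epcam, 5 others were. For Cdh3 59 others of 2704 were as low or lower, or 2.22% with Cdh3 itself counted. For Cdh2 35 others of 1636 were, or 2.20% on the same count. The same sets held more positive than negative calls, 45 against 10 for Cdh1 and 44 against 11 for Epcam. For Cdh3 these were 52 against 4 and for Cdh2 17 against 1.

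**Figure D2:**
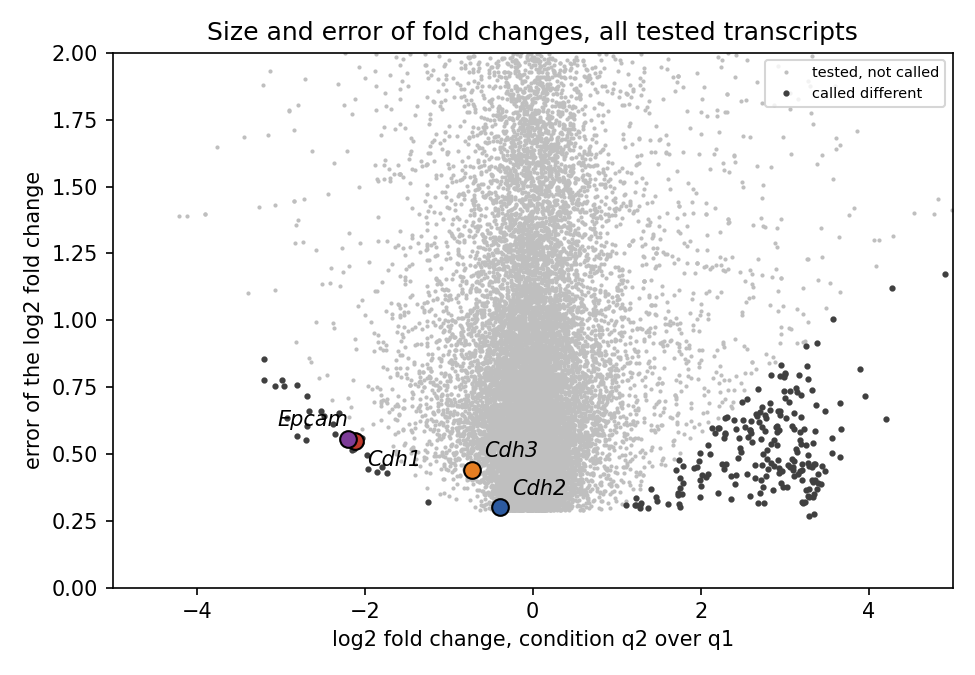
Log2 fold change of condition q2 over q1 (horizontal) against its error (vertical) for 19471 of the 28140 tested transcripts with a finite value, the other 8669 lying beyond the axes; black points were called different in the authors' deposited table and the 4 named genes are circled in colour. Cdh1 and Epcam lie together among the few negative calls. Cdh3 lies among the uncalled transcripts, left of most with a like error, and Cdh2 lies at the lower edge, where errors are smallest.

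Apart from the members themselves, loci around the members showed no call. Only 0.803% of all tested transcripts were called, so a lack of calls among a few neighbours does not set the members apart. Within 250 kb of the Cdh1 locus, apart from Cdh3, the table held 14 transcripts at 6 loci, of which 12 were tested and none was called. Their 11 finite log2 fold changes had a median of -0.08, and 8 lay within 2-fold. They ran from -12.8 to 1.45. The lowest, uc012gjw.1, lay far below Cdh1 but had a p-value of 0.930 in the authors' deposited table, and the next, uc009ngo.1, was at -1.53 with a p-value of 0.375 there. The nearest locus past Cdh1, at a gap of 12.8 kb, had a tested transcript, uc009ngl.1, at -0.04 and another, uc012gjv.1, at 1.45 with a p-value of 0.869 in the authors' deposited table. Around Epcam, 4 of 6 transcripts within 250 kb were tested, and their log2 fold changes lay between -0.23 and 0.09. A locus 94.7 kb past Epcam held a transcript, uc008dvc.1, at -2.85 that was marked as not tested. Within 250 kb of Cdh3, apart from Cdh1, 8 of 12 transcripts were tested, some of them also near Cdh1, and none was called. Their 7 finite log2 fold changes ran from -1.58 to 1.45. Near Cdh2 no other transcript within 250 kb was tested. These neighbours have no names in the table.

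**Figure D3:**
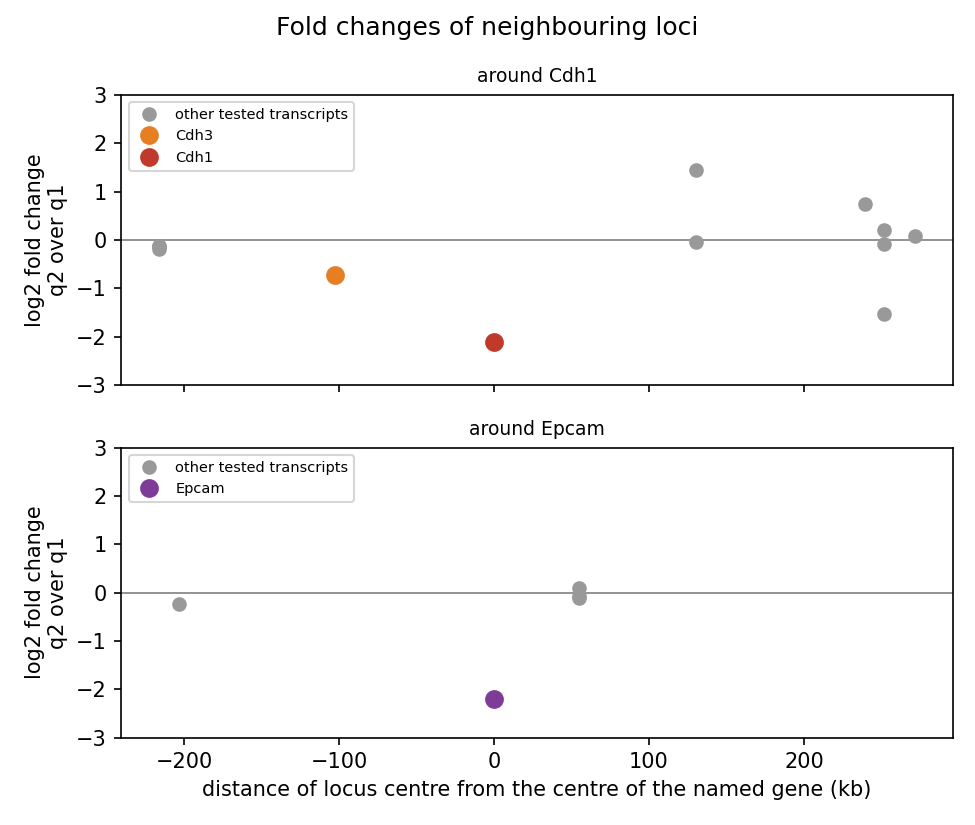
Log2 fold change of condition q2 over q1 for tested transcripts with a finite value at loci within 250 kb of Cdh1 (upper panel) and of Epcam (lower panel), by the distance in kb between locus centres; 1 uncalled transcript near Cdh1, uc012gjw.1 at -12.8, lies below the axis and below Cdh1. Of the points plotted, Cdh1 at -2.12 and Epcam at -2.19 are the lowest in their panels, and Cdh3 at -0.72 lies between Cdh1 and 0.

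Epcam is shown with the sequence before its start, because RefSeq's promoter table matched only this 1 of the 4 genes. It was also 1 of the 2 members called. The 250 bases before the Epcam start, chr17:87635729-87635978 on the plus strand of GRCm38.p6, read 5′ to 3′ as follows, with the motif matches in capitals.
Epcam: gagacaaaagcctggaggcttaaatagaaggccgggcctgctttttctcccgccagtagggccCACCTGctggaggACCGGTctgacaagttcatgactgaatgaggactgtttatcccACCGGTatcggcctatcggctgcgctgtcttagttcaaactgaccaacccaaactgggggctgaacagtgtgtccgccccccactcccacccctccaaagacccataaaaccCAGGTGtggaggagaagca
The search covered 3 motifs on both strands. CACCTG, with its reverse CAGGTG, is the E-box bound by repressors of the Snail and Zeb families, which are known for acting on Cdh1. ACCGGT reads the same on both strands and is the core of AACCGGTT, the motif known for Grainyhead-like factors, the family of Grhl3. The Epcam sequence held CACCTG 187 bases before the start and CAGGTG 19 bases before it. It held ACCGGT 174 and 131 bases before the start, and no AACCGGTT. Of the 32851 promoter windows of the same length in the table, 17.2% held CACCTG or its reverse at least once and 2.06% held 2 or more. ACCGGT was in 1.86% of windows, and 9 windows, 1 of them that of Epcam, held 2 or more. AACCGGTT was in 0.116% of windows, and each AACCGGTT contains an ACCGGT. A match describes letters and is not a bound site.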

How the data were processed

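RNA was measured in 2 sorted pools, 1 library each. The submitters' processing notes list Cuffdiff, Cufflinks 2.0.2, TopHat 1.3.2 and the build mm9, and give neither the annotation nor settings. The authors deposited, for each transcript, a log2 fold change of q2 over q1, a test statistic (a score), a p-value and a q-value. The fold changes carry placeholder values for ratios against 0, which were left out of finite values. The 2 columns of abundance match no sample's labels and were left unused, and library depth is unknown. Members were found by overlap with mm9 windows, and starts are printed as the file gives them. The members, windows and motifs were chosen with earlier results of these data known. All member transcripts are named. Other genes and cell type markers planned for naming were not looked up, because no row carries a symbol. Errors are the fold change over the test statistic, and intervals are 1.96 errors on each side. A call is the authors' own, at a q-value of 0.05. The Benjamini-Hochberg adjustment used in the alternatives was tested on simulated independent statistics, which does not test the authors' calls. Alternatives were other q-value limits, adjustment over all rows, a 4-fold rule, centring and a limit on the error. Analyses ran in Python 3.11.15 with pandas 2.3.3, numpy 2.4.6 and scipy 1.17.1, and plots were made with matplotlib 3.10.9.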

Additional observations from a re-analysis of the deposited data

How the results depend on the processing

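Leaving out a replicate was not possible with 1 library in each pool. With the q-value limit set to 0.01, 0 of the 2 calls of the authors' deposited table were left, since Cdh1 had 0.0157 and Epcam 0.0126; 0.626% of all tested transcripts were called at this limit. The count was 2 with the limit at 0.1, where 0.949% of all tested transcripts were called. It was also 2 with Benjamini-Hochberg adjustment over all rows, where Cdh1 had 0.0296 and Epcam 0.0237. The share of all transcripts called under that adjustment was not computed. Adjustment over tested transcripts, added after seeing the data, repeated the deposited q-values of Cdh1 and Epcam, so it could not change the count of 2. Counting every status moved the median log2 fold change of Cdh1 from -2.12 to -1.06 and that of Cdh3 from -0.72 to -0.36, because each has an untested transcript that lists 0. Loci that list 1 transcript, also added after seeing the data, had 2.54% of tested transcripts called. Centring on the median of all tested transcripts moved the log2 fold changes of the 4 genes by 0.0046 and changed no count of 2-fold differences. The 4-fold rule and the limit on the error left Cdh1 and Epcam counted as negative. Weighting by the error could not change a value, because each gene has 1 tested transcript. Requiring a locus to lie wholly inside its window left no member, because the windows are narrower than the loci, and alternatives that needed expression levels were not run. Depth is unknown, so what it limits cannot be given beyond these errors. No paired analysis was possible because each group has 1 library.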
